A study of Mus musculus with 2 samples.

Results

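The genes described are 52 enzymes and regulators of antioxidant defence: superoxide dismutases, catalase, peroxidases, the thioredoxin and glutathione systems, glutathione transferases, haem and quinone enzymes, the NRF regulators and the enzymes that supply NADPH. They were taken by symbol from the gene names in the scanner files, which hold 37072 names in all. The study compared total RNA of mouse cells under the agent S180 with that of cells under DMSO, the solvent control, on 2 arrays, 1 for each agent. The labels give no genotype, strain, cell type, dose, exposure time or identity of S180. With 1 array per group there is no replicate, no p-value is given, and nothing tells a difference between agents from a difference between these particular samples.

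Cells remove superoxide with superoxide dismutases, which turn it into hydrogen peroxide, and remove hydrogen peroxide with catalase in the peroxisome and with glutathione peroxidases and peroxiredoxins elsewhere. Glutathione and thioredoxin are returned to their reduced form by reductases that use NADPH, much of it from the pentose phosphate pathway. The transcription factor NRF2 (Nfe2l2), held in check by KEAP1, switches on many of these genes through antioxidant response elements, and Gclc, Gclm and Nqo1 are the targets most often used to read its activity.

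Catalase (Cat) was 2.86-fold higher on the S180 array, whereas Gclc and Gclm, the subunits of the enzyme that limits glutathione synthesis, were lower by log2 differences of -0.26 and -0.19 and the quinone reductase gene Nqo1 was 1.13-fold higher. Haem oxygenase 1 (Hmox1), which breaks down haem, was 1.86-fold higher. Of 50 measured members these 2, Cat and Hmox1, were the ones at least 1.5-fold higher, and 0 were at least 1.5-fold lower. Across all 20782 measured genes 3.08% were at least 1.5-fold higher and 1.71% at least 1.5-fold lower. At 2-fold, Cat was the single member, against 0.582% of all measured genes higher and 0.168% lower. The median difference of the measured members was 0.018 (log2) and that of all measured genes 0.0043. Of the 50 members 32 lay above 0 and 18 below, against 10583 and 10199 of the 20782 measured genes. The members were of high signal more often: 20 had signals of 20000 or more, where 76.6% of all measured genes lay above 0. After quantile normalization, and likewise among the deposited log2 values, 23 members lay above 0 and 27 below.

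A gene's value is the log2 processed signal of its brightest probe that was well above background on both arrays, minus the array's 75th percentile, and a difference is S180 minus DMSO. Each member probe has 1 spot on each array. Probes with 10 spots gave the technical error: the SD of a difference between single spots was 0.042 (log2) for the brightest of 3 groups of equal size (262 such probes), 0.072 for the middle group (6 probes) and 0.27 for the dim group (11 probes). Of the measured members 42 were in the bright group, 7 in the middle and 1 in the dim group. The error covers the array alone, not the culture or the RNA, and the small number of arrays limits the precision. On each array 59305 spots were not controls, of which 61.9% (S180) and 60.6% (DMSO) were well above background, and none was saturated. The scaling sets the zero: the 75th percentile of the S180 array lay 0.28 (log2) below that of the DMSO array, and when 8 spike-in transcripts set the scale, the median of all measured genes was -0.35. On that scale 4 of the 50 members, Cat, Hmox1, Osgin1 and Pgd, were higher in S180. The differences below are therefore relative to the other genes on the array, and the sign of a small one holds only on the 75th percentile scale unless stated.

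**Figure D1:**
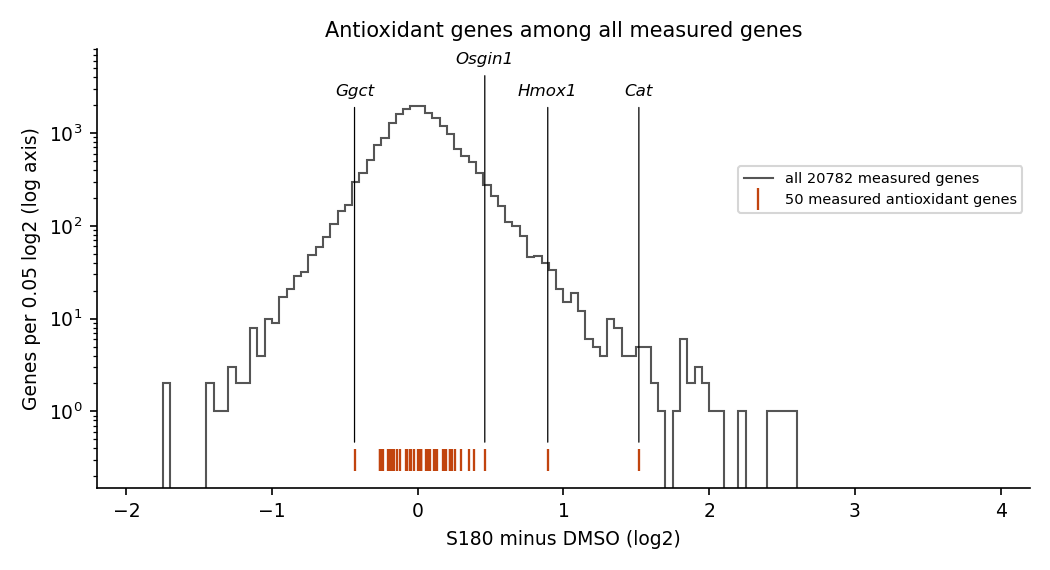
Number of genes per 0.05 of S180 minus DMSO (log2, horizontal axis; the vertical axis is logarithmic) for all 20782 measured genes, with ticks for the 50 measured members. Most members lie in the middle of the distribution, and Cat at 1.52 and Hmox1 at 0.89 lie in its upper tail.

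The labels name no cell type. Of 6 sets of cell type markers the melanocyte set (Mitf, Tyr, Dct, Pmel, Mlana, Tyrp1 and Sox10) was measured in full, with 7 of 7 members, at percentiles of signal from 76.0 (Tyr) to 99.9 (Mlana). The macrophage set had 5 of 6 members measured, with the highest signal at 1891 (Ptprc) and Adgre1 not above background, and the fibroblast set 4 of 5, with the highest at 1378 (Col1a2). The erythroid and epithelial sets had 2 measured members each, with no signal above 47.2, and the hepatocyte set had none. Melanocyte markers differed between the arrays by -0.12 to 0.26 (log2). Before scaling, the summed fibroblast signal was 1387 with S180 and 2389 with DMSO, and the summed macrophage signal 2130 and 2751. The 75th percentile of the S180 array lay 0.28 (log2) below that of DMSO, which these sums do not correct for. After scaling, the measured fibroblast markers differed by -0.83 (Col1a2), -0.48 (Pdgfra), -0.38 (Dcn) and -0.017 (Col1a1). The measured macrophage markers ran from -0.84 (Lyz2, with signals of 16.0 and 34.7) to 0.22 (Csf1r), with Ptprc at -0.13. Much of each sum was 1 gene, Col1a2 (640 and 1378) and Ptprc (1418 and 1891). The part of these sets in the differences below was not tested.

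The promoters of Cat and of the NRF2 targets Gclm and Nqo1 are shown. The RefSeq promoter table (build GRCm38.p6) holds 46 of the 52 members. Gclc, Hmox1, Gsr, Prdx6, Sod3 and Gsta4 have no entry, so the members' shares below leave them out. Shown are the 250 bases before the transcription start, 5′ to 3′ along the gene. Capitals mark the antioxidant response element core (TGACNNNGC) and the CCAAT box (CCAAT), on either strand.
Cat, chr2:103485154-103485403, minus strand: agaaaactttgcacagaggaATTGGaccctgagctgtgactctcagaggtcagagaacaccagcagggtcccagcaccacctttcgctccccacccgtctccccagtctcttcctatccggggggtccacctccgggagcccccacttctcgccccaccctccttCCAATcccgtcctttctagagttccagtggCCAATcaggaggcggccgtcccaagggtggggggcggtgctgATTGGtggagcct
Gclm, chr3:122245307-122245556, plus strand: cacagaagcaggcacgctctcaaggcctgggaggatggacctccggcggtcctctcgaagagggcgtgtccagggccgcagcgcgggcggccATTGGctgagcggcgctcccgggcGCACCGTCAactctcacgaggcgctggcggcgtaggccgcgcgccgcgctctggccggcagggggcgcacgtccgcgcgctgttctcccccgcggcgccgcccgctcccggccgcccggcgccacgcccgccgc
Nqo1, chr8:107403206-107403455, minus strand: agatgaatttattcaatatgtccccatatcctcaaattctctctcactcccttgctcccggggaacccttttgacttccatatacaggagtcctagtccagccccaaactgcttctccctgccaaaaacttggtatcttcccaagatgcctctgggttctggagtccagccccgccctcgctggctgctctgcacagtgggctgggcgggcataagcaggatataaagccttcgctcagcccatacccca

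The Cat window held 4 CCAAT boxes, starting 230, 85, 55 and 13 bases before the start, and no antioxidant response element core. The Gclm window held 1 core, GCACCGTCA on the opposite strand, 134 bases before the start, and 1 CCAAT box. The Nqo1 window held neither. Among all 32851 promoters of this length 10.2% held the core on either strand, and among the 67 promoters of the 46 members 13.4% did. They belonged to 9 genes: G6pdx, Gclm, Ggct, Gstm5, Mgst1, Nfe2l2, Prdx1, Sod1 and Txnrd1. The CCAAT box was held by 33.8% of all promoters and 41.8% of the members' promoters. The core of the hypoxia response element (ACGTG, either strand, which is also part of the E-box) was held by 16.6% of all promoters and 16.4% of the members' promoters, in 11 genes, with Gclm among them and Cat not. These matches describe the letters in a short window, and their part in the differences was not tested.

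Catalase, which splits hydrogen peroxide into water and oxygen, had a processed signal of 13579 (S180) and 5764 (DMSO), and so was higher before any scaling. Its difference of 1.52 (log2) placed it at the 99.8th percentile of all measured genes. It was 1.16 on the spike-in scale. The array carries 1 probe for Cat, at chr2:103294660-103294719 (build mm9, as all probe positions here), so that no further probe checks it. Gclc, the catalytic subunit of glutamate-cysteine ligase, had signals of 4862 (S180) and 7081 (DMSO), a difference of -0.26, from its probe at chr9:77641296-77641355. Gclm, the modifier subunit, had 12176 and 16922, a difference of -0.19, at chr3:121967737-121967796. Both Gclc and Gclm were lower in S180 under all 10 settings tried, but most settings could not turn the sign. They lower all genes alike or repeat the value of a gene with 1 probe. Quantile normalization, which the deposited table matches, and normexp background correction could turn it. Gclc was -0.26 and -0.25 under these, and Gclm -0.22 and -0.21. Nqo1 had 4294 and 4632, a difference of 0.17, at chr8:109912440-109912499, and it was lower in S180 without scaling (-0.11) and on the spike-in scale (-0.18).

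Against each target on the same arrays, the Cat difference exceeded that of Gclc by 1.78 (log2), that of Gclm by 1.71 and that of Nqo1 by 1.35. Against the mean of the 3 it was 1.61 larger, a 3.06-fold gap, and a shift of the whole array cannot alter this figure. It lay at 1.59 with quantile normalization. Hmox1 had signals of 50853 and 33296, a difference of 0.89, from its brightest probe at chr8:77624406-77624466, and a slightly larger one from a dim probe with signals of 91.3 and 55.4. Hmox1 lay 0.63 below Cat and 1.15 above Gclc.

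**Figure D2:**
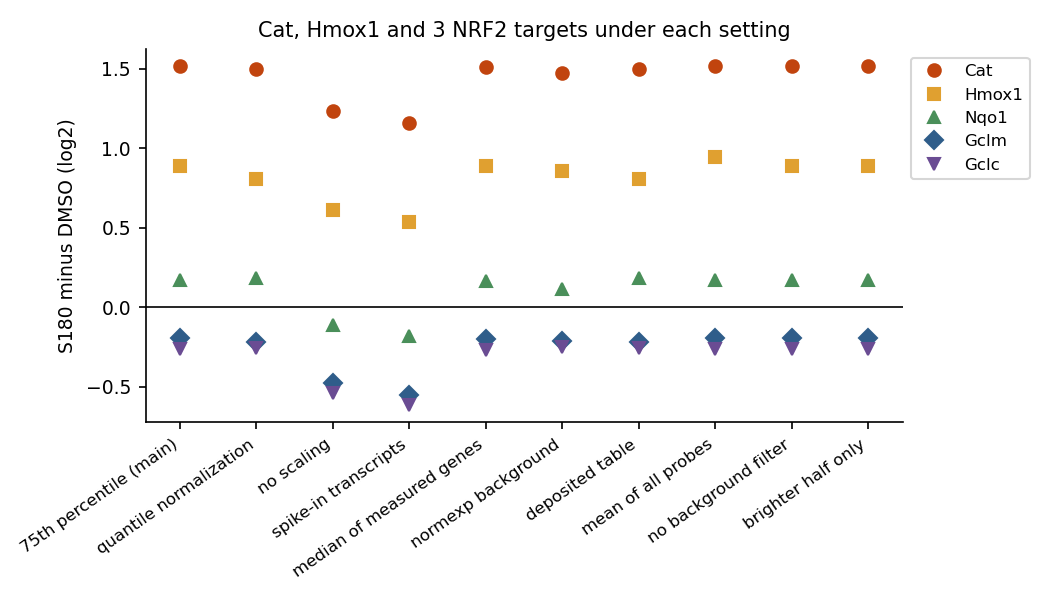
S180 minus DMSO (log2, vertical axis) for Cat, Hmox1, Nqo1, Gclm and Gclc under the 10 processing settings on the horizontal axis, 1 point per gene and setting from 1 array a group. Cat stays between 1.16 and 1.52 and Hmox1 between 0.54 and 0.95, Gclc and Gclm stay below 0, and Nqo1 changes sign without scaling and on the spike-in scale.

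**Figure D3:**
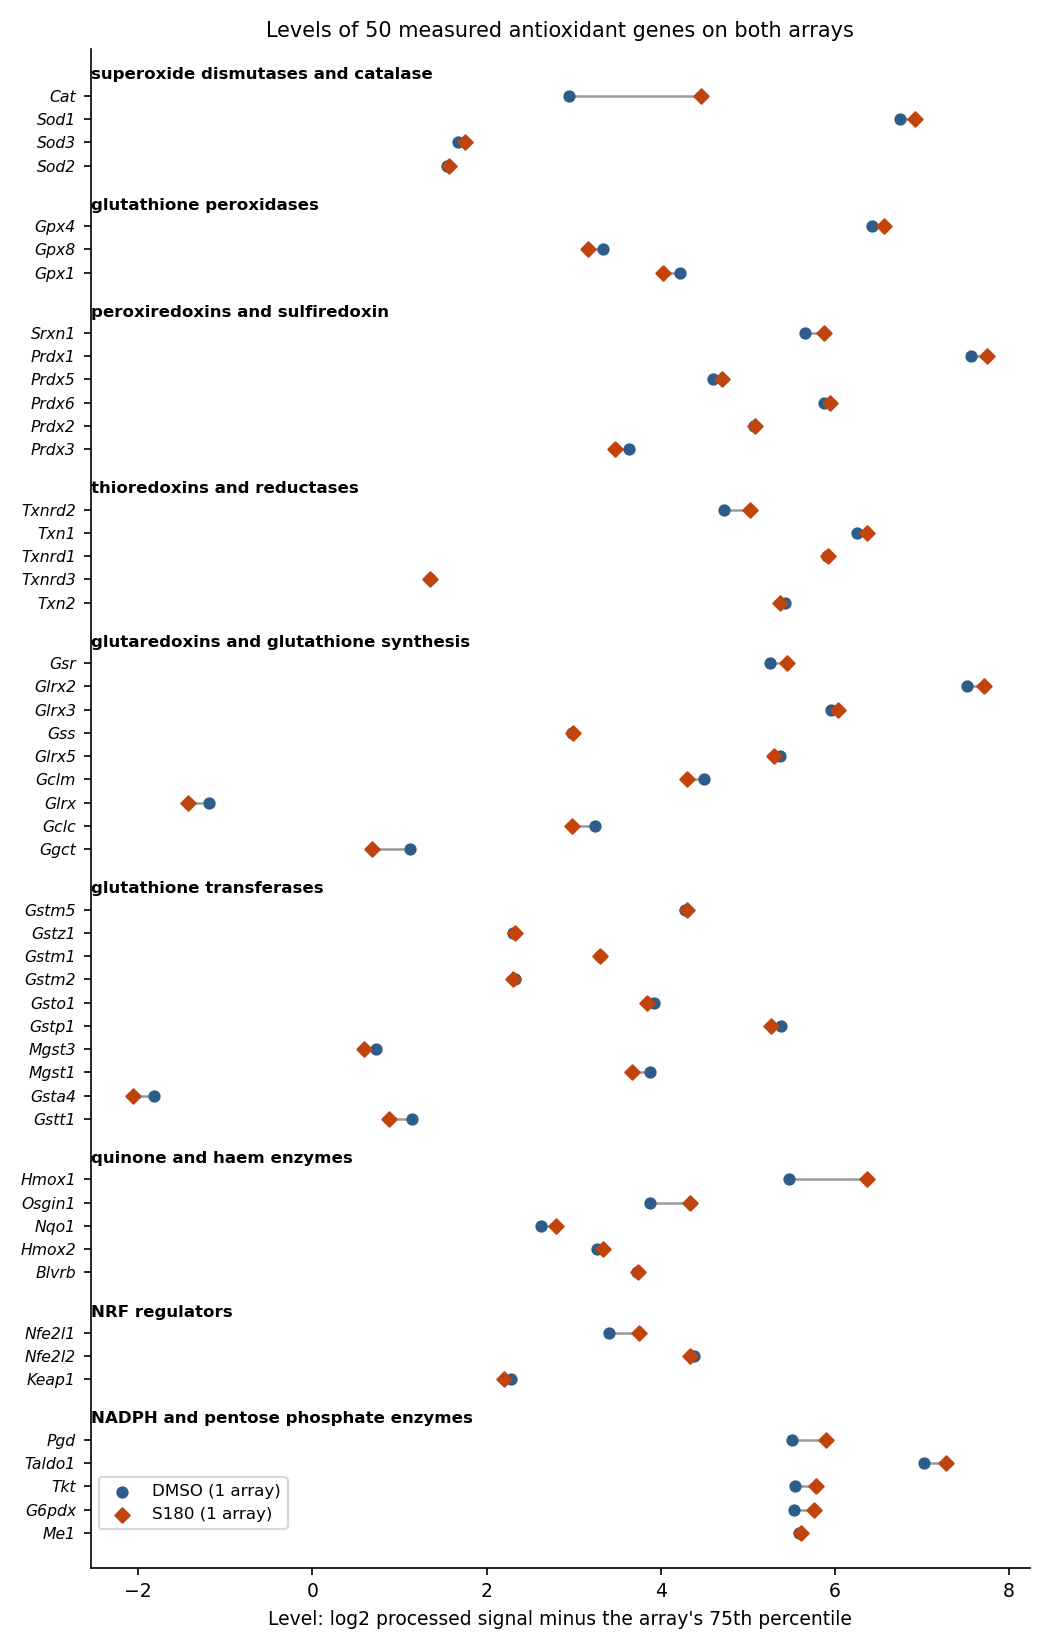
Levels of the 50 measured members by enzyme class (horizontal axis, log2 processed signal minus the array's 75th percentile) on the DMSO array (circles) and the S180 array (diamonds), 1 array each. Cat, from 2.95 to 4.46, and Hmox1, from 5.48 to 6.37, have the longest lines, and the circle and diamond of most other members nearly coincide.

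The superoxide dismutases, the other members of the first enzyme class, differed little. Sod1, the cytosolic copper-zinc enzyme, had 74691 (S180) and 80058 (DMSO), a difference of 0.18, with 0.33 from a further probe of low signal. Sod2, the mitochondrial manganese enzyme, had 1822 and 2185, a difference of 0.019, which is within the technical SD. Sod3, the secreted enzyme, had 2073 and 2381, a difference of 0.081, near its technical SD. All 4 members of the class lay above 0, as did 10583 of all 20782 measured genes, but without Cat the largest difference was 0.18.

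The glutathione peroxidases reduce peroxides with glutathione. Gpx1, the cytosolic enzyme, had 10045 (S180) and 13905 (DMSO), a difference of -0.19, and Gpx8, of the endoplasmic reticulum, had 5503 and 7557, a difference of -0.18. Both were lower in S180 under all 10 settings, of which most could not turn a negative sign. Under quantile normalization and normexp, which could, Gpx1 was -0.21 and -0.26 and Gpx8 -0.17 and -0.20. Gpx4, which reduces lipid peroxides in membranes and protects against ferroptosis, had 58074 and 64271, a difference of 0.13, the opposite sign on the 75th percentile scale. Gpx3 and Gpx7 were not well above background on either array, with signals of 2.6 to 3.3, and they are the 2 members without a value.

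Peroxiredoxins are abundant thiol peroxidases, and sulfiredoxin restores those that were overoxidised. The class had a median of 0.087, with 5 of 6 members above 0, and a median of -0.023 after quantile normalization. Prdx1, Prdx2, Prdx6 and Srxn1 had signals of 20000 or more, where 76.6% of all measured genes lay above 0. Sulfiredoxin (Srxn1), another frequent NRF2 target, was the highest, with 36186 (S180) and 37773 (DMSO), a difference of 0.22. Prdx1 had 132230 and 140957, a difference of 0.19 on its brightest probe, but its 4 measured probes ran from -0.10 to 0.36, the widest range of any member. Prdx3, the mitochondrial peroxiredoxin, was the lowest, with 6827 and 9280, a difference of -0.16. Prdx5, Prdx6 and Prdx2 differed by 0.11, 0.065 and 0.017.

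Thioredoxin passes electrons to peroxiredoxins and is itself reduced by thioredoxin reductase. Txn1, the cytosolic protein, had 50982 (S180) and 56989 (DMSO), a difference of 0.12. Txn2, its mitochondrial counterpart, had 25539 and 32128, a difference of -0.050, with all 3 of its measured probes below 0. The mitochondrial reductase gene Txnrd2 had 19998 and 19741, a difference of 0.30, the highest of the class, but its 3 measured probes ran from -0.10 to 0.30. Txnrd1, the cytosolic reductase and an NRF2 target, had 37363 and 44859, a difference of 0.017, with 0.033 from its other probe, and Txnrd3 differed by 0.00083. The mitochondrial members did not share a sign.

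Glutathione is made by glutamate-cysteine ligase and glutathione synthetase (Gss), recycled by glutathione reductase (Gsr) and used by glutaredoxins to reduce protein thiols. Besides Gclc and Gclm, the gene for gamma-glutamylcyclotransferase (Ggct), an enzyme of glutathione turnover, was lower, with 993 (S180) and 1630 (DMSO). Its difference of -0.43 was the lowest of all 50 measured members under each of the 10 settings and lay at the 3.93rd percentile of all measured genes. A shift of the whole array cannot alter this rank. Gss had 4916 and 5924, a difference of 0.012, within the technical SD, and -0.057 from its other probe. Gsr, the highest of the class, had 26932 and 28587, a difference of 0.20. Gclc and Gclm thus lay below 0, Gss near 0 and Gsr above it on this scale.

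Among the glutaredoxins, Glrx, the main cytosolic form, had signals of 228 and 329, a difference of -0.25. Glrx2 had 129063 and 137494, a difference of 0.19, on its brightest probe and -0.15 on a probe with signals of 4452 and 6007, so that its direction depends on the probe. Glrx3 and Glrx5, which serve in iron-sulfur metabolism, differed by 0.080 and -0.071.

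Glutathione transferases attach glutathione to reactive compounds. Of the 10 members 7 lay below 0, and the class median was -0.097. Of all 20782 measured genes 10199 lay below 0. Most of the 10 had signals from 1000 to 20000. Of all measured genes 41.5% lay above 0 at signals from 1000 to 5000, and 47.1% from 5000 to 20000. Gstt1 was the lowest, with 1134 (S180) and 1647 (DMSO), a difference of -0.26. Gsta4, which detoxifies the lipid peroxidation product hydroxynonenal, had 148 and 212, a difference of -0.24, within the technical SD of the dim group. Mgst1, a membrane-bound transferase, had 7827 and 10971, a difference of -0.21, and -0.27 on its other probe, and Mgst3 differed by -0.14. Gstp1, the pi class enzyme, had 23595 and 31175, a difference of -0.12, and Gsto1 differed by -0.073. Gstm5, the highest of the class, had 12088 and 14466, a difference of 0.022. Gstz1, Gstm1 and Gstm2 lay between -0.023 and 0.017 on their brightest probes, all within the technical SD. The other Gstz1 probe, with signals of 1540 and 2038, gave -0.12. The brightest Gstm1 probe is placed on chromosome 5 in the files while RefSeq has the gene on chromosome 3, where its other probe lies with a difference of 0.042. Genes of this subfamily are closely related, and cross-hybridisation between them was not tested. The 7 lower transferases kept their sign under every setting that gave a value, but most settings could not turn a negative sign. Quantile normalization, the deposited table and normexp could, and the 7 lay below 0 there too, Gstm2 by as little as -0.012.

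**Figure D4:**
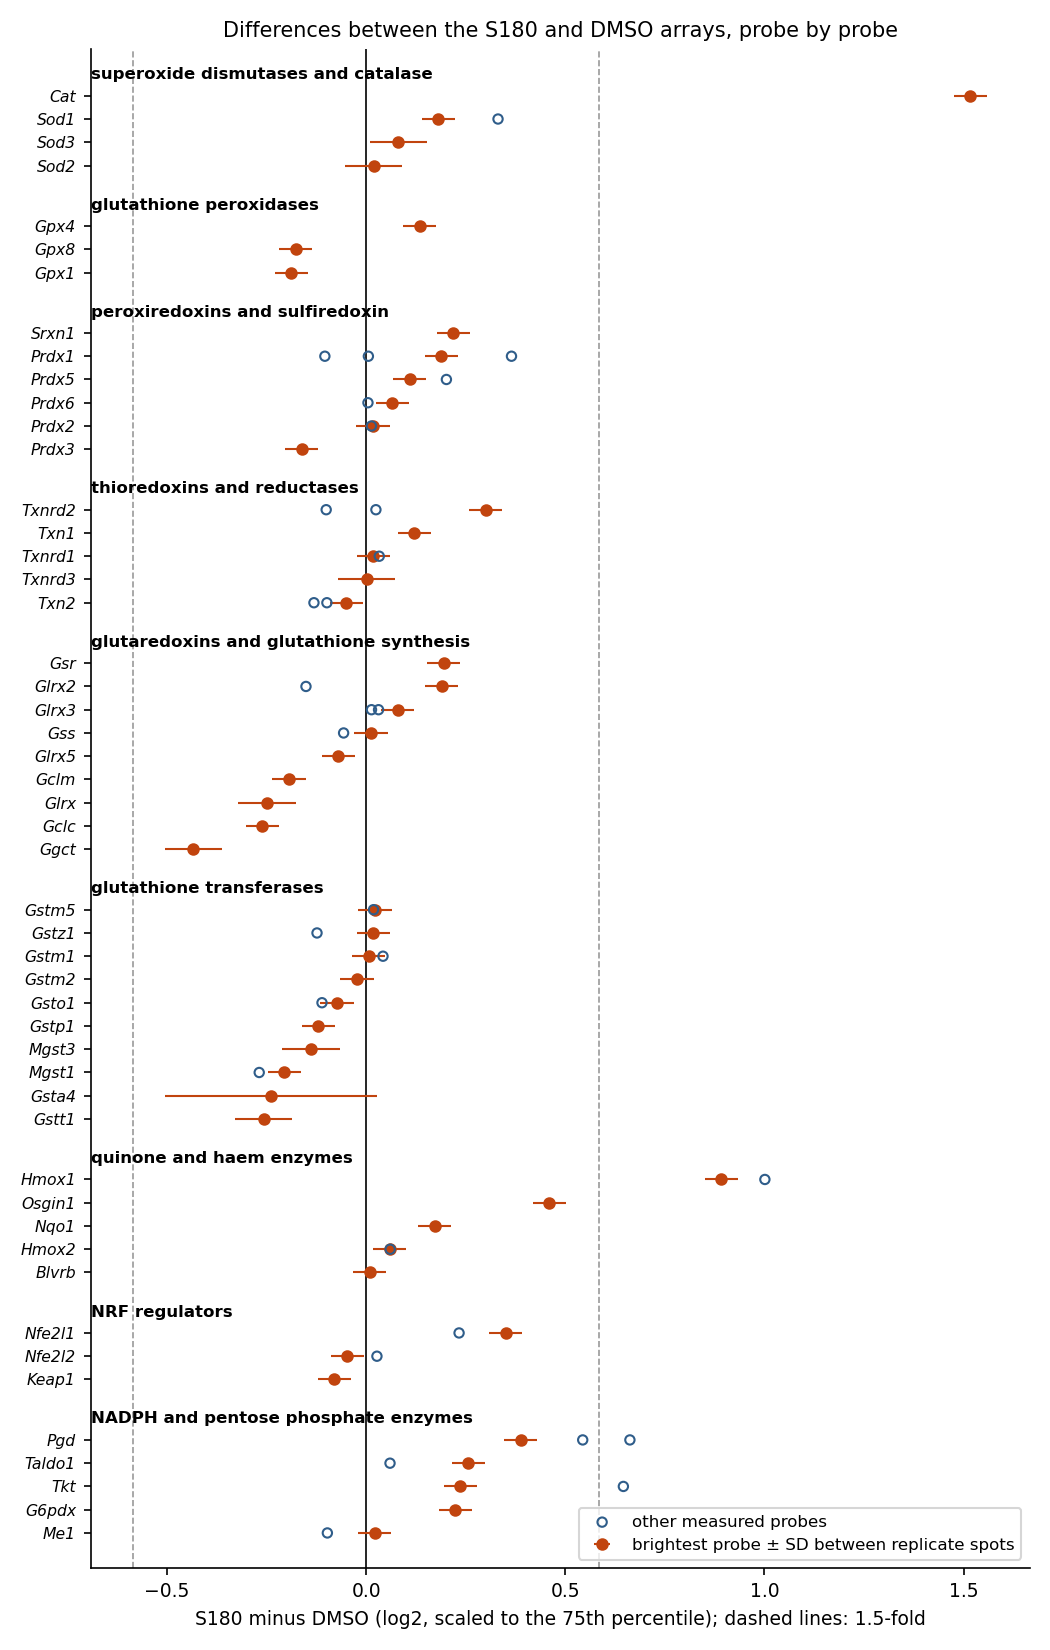
S180 minus DMSO (log2, horizontal axis) for the 50 measured members by enzyme class, with filled points for the brightest probe, bars for the SD between replicate spots of genes of like signal, and open points for other measured probes. Cat and Hmox1 lie to the right of the 1.5-fold line and Ggct lies lowest at -0.43, while most members lie within 0.3 of 0.

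Of the remaining NRF2 targets, Osgin1, an oxidative stress-induced growth inhibitor, had 12477 (S180) and 11023 (DMSO), a difference of 0.46 at the 94.3rd percentile. It was higher in S180 under all 10 settings, by 0.11 on the spike-in scale. Hmox2, the constitutive haem oxygenase, had 6199 and 7232, a difference of 0.059, and the same 0.06 on its other probe. Blvrb, a biliverdin reductase, had 8231 and 9938, a difference of 0.0093. Blvra, the other biliverdin reductase gene, had 1955 and 2264, a difference of 0.069, and -0.12 on its other probe. Hmox1 therefore stood apart from Hmox2 and Blvrb by more than the technical error.

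Among the regulators, Nfe2l2 (NRF2) had 12408 (S180) and 15577 (DMSO), a difference of -0.047, with 0.027 from its other probe. Keap1, its inhibitor, had 2818 and 3621, a difference of -0.080. Nfe2l1 (NRF1), the related factor known for inducing proteasome genes, had 8295 and 7907, a difference of 0.35, with 0.23 on its other probe. On the spike-in scale the Nfe2l1 value was -0.0049. Transcript levels do not report NRF2 protein, which is regulated by its degradation.

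The pentose phosphate pathway returns NADP to NADPH in its oxidative steps, catalysed by G6pdx and Pgd, and rearranges sugars with Tkt and Taldo1. Pgd had 36757 (S180) and 34137 (DMSO), a difference of 0.39, with 0.54 and 0.66 on probes of low signal. G6pdx had 33232 and 34575, a difference of 0.22. Tkt had 33808 and 34873, a difference of 0.24, with 0.65 on a probe of low signal (56.4 and 43.8). Taldo1 had 95351 and 96984, a difference of 0.26, with 0.060 on its other probe. Malic enzyme (Me1), a further source of NADPH and a known NRF2 target, had 30078 and 36000, a difference of 0.022, and -0.097 on its other probe. All 5 lay above 0, as did 76.6% of all measured genes with a signal of 20000 or more. The class median was 0.24. With quantile normalization the class median was 0.14, and Me1 lay below 0 at -0.064. On the spike-in scale Pgd, at 0.033, was the only one of the 5 above 0.

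The difference varied with signal, without a steady trend. Among the 1827 genes whose geometric mean signal over both arrays was 20000 or more, the median difference was 0.095 and 76.6% lay above 0. All 5 NADPH enzymes belong there, with 20 members in all, whose median was 0.16 and of which 17 lay above 0. Among the 3247 genes with a signal from 5000 to 20000 the median was -0.011, and the 18 members there, Cat included, had a median of 0.0080. Among 4807 genes from 1000 to 5000 it was -0.039, against -0.011 for 10 members. The 10901 genes under 1000 had a median of 0.014, with 51.9% above 0, and the 2 members there lay at -0.25 (Glrx) and -0.24 (Gsta4). The split by signal was chosen after the values were seen. The part of signal in the class medians was not tested. Quantile normalization, which sets both arrays to 1 distribution of signals, lowered several members of high signal. Taldo1 went from 0.26 to 0.086, Tkt from 0.24 to 0.15, G6pdx from 0.22 to 0.14, Pgd from 0.39 to 0.31 and Prdx1 from 0.19 to -0.028. Cat was 1.498 and Ggct -0.41 under it.

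Of the 50 measured members 24 had several measured probes, and in 17 of these all probes had 1 sign. The median range over the probes of a member was 0.087. The other 26, with Cat, Gclc, Gclm, Nqo1, Ggct and Osgin1 among them, rest on 1 probe.

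Other genes of the same routes were taken from 4 lists chosen with earlier results of these data known. Against the counts below, 3.08% of all measured genes were at least 1.5-fold higher and 1.71% at least 1.5-fold lower. In lists this short, counts of 0 to 2 are not read as results about the lists. Of 29 measured further genes of the glutathione and thioredoxin systems 2 were at least 1.5-fold higher and 0 lower, with a median of -0.022. The 2 were Chac1, which degrades glutathione (8535 in S180 and 3895 in DMSO, 2.66-fold), and Slc7a11, the cystine importer that supplies its synthesis (6326 and 4503, 1.71-fold, with 0.64 to 1.41 over 4 probes). The lowest were Mgst2 at -0.46 and Gstt3 at -0.40. Of 23 measured further NRF2 targets and partners 2 were at least 1.5-fold higher and 0 lower, with a median of 0.10. Besides Slc7a11 this was Maff, a small Maf protein that pairs with NRF2 (1764 and 608, 3.52-fold), while Trim16 and Abcc4 were lowest at -0.14 each, with 0.75 on the other Trim16 probe.

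Catalase lies in the peroxisome, and the 30 measured peroxisomal genes had a median of -0.065, with 0 at least 1.5-fold apart in either direction. Their range ran from -0.25 to 0.31. Among them the lowest were the import factor genes Pex7 at -0.25 and Pex3 at -0.24. The Cat difference of 1.52 was outside the range of these listed genes. Cat lies at the 99.8th percentile of all measured genes and would exceed most genes of almost any list. The comparison therefore says nothing particular of the peroxisome. Catalase is also a known target of FoxO factors. The median of 19 measured FoxO factors and targets was 0.071. Of them 4 were at least 1.5-fold higher and 1 lower, against 3.08% and 1.71% of all measured genes. The highest were Bnip3, a mitophagy receptor, at 3.81-fold (79081 and 25251) and Ccng2, an atypical cyclin, at 1.89-fold. The lowest were the Kruppel-like factor gene Klf2, 1.69-fold lower, and the insulin receptor gene Insr at -0.29, with 0.34 on its other probe. Bnip3 is also a known hypoxia target. The part of FoxO factors or of hypoxia in the Cat difference was not tested.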

How the data were processed

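Total RNA was labelled with Cy3 and hybridised to 1-colour Agilent mouse arrays, per the labels' protocols, and samples were grouped by the agent in the labels. The deposited intensity values come from Agilent Feature Extraction 10.7.1.1 (submitters' processing notes); the processed intensity was background-subtracted and detrended within each array, with surrogates for dim spots and no scaling between arrays, per the file headers. The deposited log2 table has columns with a median of 5.27, and 99.97% of its probe values matched quantile normalization of the log2 processed signals to within 0.01, so that its scale and direction were settled. The tool that made it: not given in the sources used here.

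Control spots and outlier spots (120 on the S180 array, 195 on the DMSO array) were left out, spots of a probe were averaged on the log2 scale and the array's 75th percentile was subtracted. A gene was its brightest probe well above background on both arrays. Genes were counted at 1.5-fold and 2-fold. Normexp used limma 3.58.1 with an offset of 50. The steps were tested on simulated data. All 52 members could be named; in each of the 9 classes the largest differences in each direction are given, and the 2 largest in each direction in each of 4 context lists, of which some are not reported here. Members, lists and markers were chosen with earlier results of these data known.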

Additional observations from a re-analysis of the deposited data

How the results depend on the processing

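No paired analysis was possible because each group has 1 array. Under 9 other settings, 4 members (Cat, Hmox1, Osgin1 and Pgd) stayed above 0 in all that were run and 18 stayed below 0. The other 28 changed sign under at least 1, and the results for single members were added after seeing the data. No scaling and the spike-in scale lower every member by the same amount. Members below 0 in the main setting, the same 18, therefore cannot turn there, while small positive differences do. The counts of 4 and 18 do not show that the decreases are firmer. Without scaling the Cat difference was 1.24 (log2), the median of the members -0.26, and 1 member was at least 1.5-fold lower. On the spike-in scale Cat was 1.16, the median -0.34, and 1 member was at least 1.5-fold higher and 5 lower. In both settings this follows from the shift of the whole array. Cat was 1.47 with normexp, for which the cause was not tested. At a 2-fold threshold 1 member was higher. Quantile normalization, the deposited table, the median of measured genes, the mean of all probes, no background filter and a restriction to genes above the median signal left 2 members 1.5-fold higher and 0 lower, with the median between -0.011 and 0.020. The distance of Cat from the mean of Gclc, Gclm and Nqo1 was 1.61 in the main setting. It was 1.59 with quantile normalization, the deposited table and normexp. The mean of all probes, no background filter and the restriction by signal could not change it. Each of these genes has 1 probe, which is well above background and above the median signal. Dim probes limit what can be said of Gsta4, and Gpx3 and Gpx7 have no value.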
